A study of Homo sapiens with 8 samples.

Results

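Metallothioneins are small, cysteine-rich proteins that hold zinc and copper in the cell and also bind cadmium and other heavy metals. They can bind platinum drugs such as cisplatin, and high metallothionein levels have long been studied in connection with platinum resistance. Most human genes of the family sit side by side on chromosome 16 and differ little in sequence. Their transcription is raised by metals through MTF1, a zinc-sensing transcription factor that binds metal response elements in their promoters, and by glucocorticoids and oxidative stress.

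The genes described here are MT1A, MT1B, MT1E, MT1F, MT1G, MT1H, MT1L, MT1M, MT1X and MT2A. They were taken by name: every gene probe of the array that carries 1 of these 10 names, out of 43317 names in all. The 10 genes had 13 of the 58201 gene probes, with 3 for MT1E, 2 for MT1B and 1 for each of the others. Of these, 11 probes were well above background on all 8 arrays and entered the tests. The probes of MT1G and MT1H did not pass the filter on dim signals, so 8 of the 10 genes were tested, among 21283 genes.

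The arrays came from SAS cells, an established line of human tongue squamous cell carcinoma (SAS/GFP in the methods of the study). All 4 groups received 25 nM of a small RNA by transfection with the same reagent, and no agent besides the RNA differs between them in the labels. The groups were a miR-629-3p, a miR-210-3p and a miR-874-3p mimic and a negative control RNA (NC), with 2 arrays each. By the sample labels, RNA was taken 48 h after transfection and 100 ng of it was labelled with Cy3. The published methods differ, with a shorter time and another extraction kit. The mimics and the NC came from different suppliers, so the mimic and the supplier cannot be told apart in a comparison with NC. A mimic raises a miRNA far above its natural level in 1 line, and nothing says that the 2 samples of a group were separate cultures, so p-values measure the spread between these samples, which may be technical.

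All 8 arrays lay on 1 slide and were scanned together. Row 1 of the slide held both miR-629-3p and both miR-210-3p arrays and row 2 those of miR-874-3p and NC, so the row cannot be told apart from the group when miR-629-3p or miR-210-3p is set against NC. The comparison of miR-629-3p with miR-210-3p lies within row 1 and that of miR-874-3p with NC within row 2. The share of gene probes well above background was 46.5% to 49.8% on the row 1 arrays and 41.8% to 46.3% on the row 2 arrays, and its part in the results was not tested. With 2 arrays a group, precision is limited throughout. As markers of the labelled cell type, 10 of 10 squamous epithelial genes were well above background on all arrays. Of 6 fibroblast markers 1 was well above background on every array, and COL1A2, DCN and LUM on none. The same held on every array for 2 of 4 endothelial markers, with TEK on none, and for 1 leukocyte marker.

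The mature sequences of the miRNAs are shown because they define the treatments. The seed, bases 2 to 8 from the 5′ end, is in capitals, and the sequences are those of RefSeq for GRCh38.p14.
miR-629-3p: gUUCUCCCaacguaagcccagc
miR-210-3p: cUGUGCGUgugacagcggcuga
miR-874-3p: cUGCCCUGgcccgagggaccga
No seed is shared among the 3 miRNAs. None of the 13 metallothionein probes held a match to a seed, that is the letters GGGAGAA for miR-629-3p, ACGCACA for miR-210-3p or CAGGGCA for miR-874-3p. Over all gene probes the share with a match was 0.747%, 0.131% and 0.387%, respectively. A probe covers only 60 bases of a transcript, so this says nothing of the rest.

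The probes are shown because the family is so alike that they decide which transcript is read. The probe named MT1A lies in the coding sequence and is read here with its cysteine codons (TGC or TGT) in capitals, 8 of 20 codons. On hg19, the build of the array's own annotation, it spans chr16:56673205-56673808 on the plus strand, across an intron.
MT1A: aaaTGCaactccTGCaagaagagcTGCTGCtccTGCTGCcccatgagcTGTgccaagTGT
MT1HL1: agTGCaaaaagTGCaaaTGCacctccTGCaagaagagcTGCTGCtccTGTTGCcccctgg
The second sequence is the probe of MT1HL1, a related locus at chr1:237167555-237167614 (hg19) that is not among the 10 genes, and it shares an unbroken run of 27 bases with the MT1A probe. The array's annotation of the MT1A probe also lists a transcript of MT1M, and that of the MT1HL1 probe a transcript of MT1H.

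The probes of MT1X, MT1F, MT1H, MT1L and MT1B and 1 of the MT1E probes hold the same short stretch of the transcript, which in MT1L and MT1B follows directly on the stop codon. Its 30 bases line up without gaps, and every base that differs from the MT1X probe is in capitals.
MT1X: tgccaggacagctgtgctctcagatgtaaa
MT1F: tgccaggacaAcCTtTctcCcagatgtaaa
MT1H: tgTcGggacagcCCtgctGtcagatgAaaa
MT1L: tgTGGggacagACCtgctcCcagatgtaaa
MT1E: tgTGGgAacagctCtTctcCcagatgtTaa
MT1B: tgTTGggaGagcCCtgctcCcagaCAtaaa
MT1F differs from MT1X at 5 of the 30 bases, MT1H at 6, MT1L at 7, MT1E at 8 and MT1B at 9. The MT1E probe shown lies at chr16:56660883-56660942 (hg19). The brightest MT1E probe overlaps it, with 29 of 30 aligned bases identical, and so reaches into the same stretch. By contrast, the MT2A and MT1M probes share no run longer than 7 bases with the probe of another gene shown or named here. How far near-identical transcripts were read by each other's probes was not tested, so a value below belongs to the probe of that name and may include its relatives.

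Levels are log2 signals relative to the 75th percentile of the gene probes of the array, and the level of a probe is compared only with itself. The first question was whether metallothionein transcripts differ between cells given miR-629-3p and cells given NC. MT1X, MT1F and MT1M were lower with miR-629-3p, MT1X most of all at 2.09-fold, and 4 other MT1 genes had lower means that did not pass the test. MT2A had nearly the same level in all groups. A gene was called where limma gave it a p under 0.05 after Benjamini-Hochberg adjustment across the tested genes.

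MT1X, a widely expressed MT1 isoform, was read by a probe at chr16:56717962-56718021 (hg19, plus strand). Its log2 level was 3.90 and 3.83 for the miR-629-3p pair of arrays, 5.04 and 5.03 for the miR-210-3p pair, 4.89 and 5.05 for the miR-874-3p pair and 4.78 and 5.08 for the NC pair. The miR-629-3p arrays thus lay apart at the bottom, and the ranges of the other 3 groups ran into each other. The mean was 3.87 ± 0.05 (SD, n = 2) in miR-629-3p cells and 4.93 ± 0.21 (SD, n = 2) in NC cells, a log2 difference of -1.06 (SE 0.12, 95% confidence interval -1.36 to -0.77) or 2.09-fold. The adjusted p of limma was 0.00748.

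MT1F, another isoform of the MT1 group, was read at chr16:56693077-56693136 (hg19, plus strand). Its log2 level was 1.66 and 1.51 for miR-629-3p, 2.64 and 2.57 for miR-210-3p, 2.15 and 2.27 for miR-874-3p and 2.07 and 2.29 for NC. The miR-629-3p arrays were the lowest, the miR-210-3p arrays the highest, and those of miR-874-3p and NC overlapped between them. Against NC the log2 difference with miR-629-3p was -0.59 (SE 0.11), 1.51-fold, with an adjusted p of 0.0207 from limma.

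MT1M was read at chr16:56667810-56667869 (hg19, plus strand) by a probe that shares only short runs with the others, though 26 of 38 aligned bases are identical with the MT1G probe. Its log2 level was 7.27 on each of the miR-629-3p arrays, 7.83 and 7.92 for miR-210-3p, 7.78 and 7.59 for miR-874-3p and 7.71 and 7.91 for NC. Again only the miR-629-3p arrays stood below all others. The log2 difference from NC was -0.54 (SE 0.11), 1.46-fold, and the adjusted p of limma was 0.0255.

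**Figure D1:**
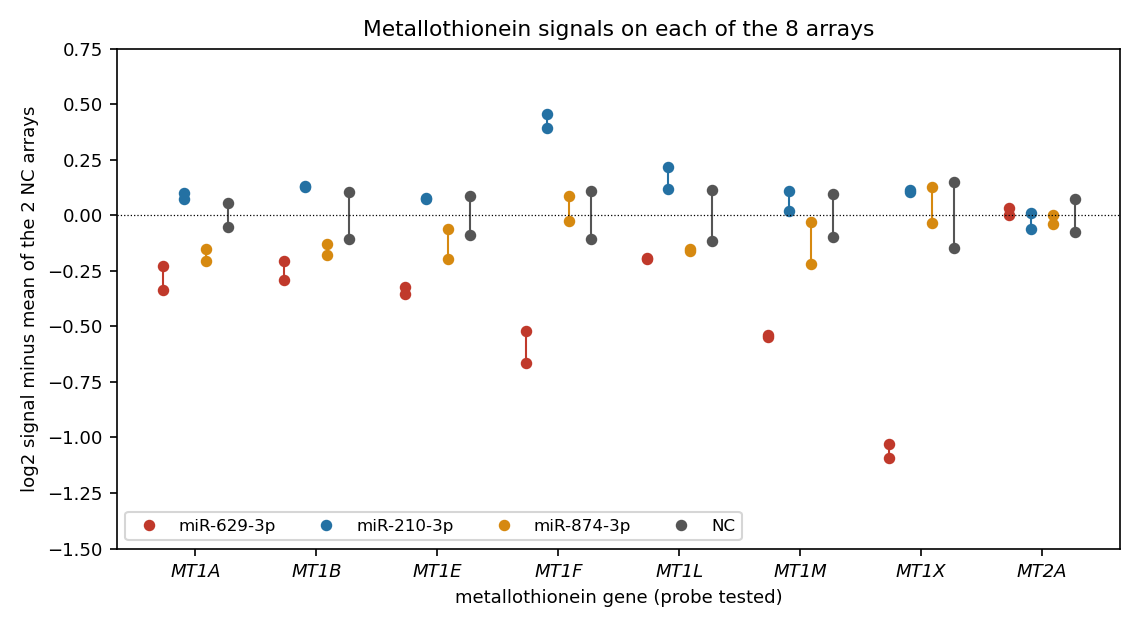
Log2 signal of the tested probe of each of 8 metallothionein genes, minus the mean of the 2 NC arrays, with 1 point for each of the 8 arrays and a line joining the 2 arrays of a group. The miR-629-3p points lie below all others in 7 genes, lowest in MT1X, and among the others in MT2A.

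MT1A, MT1B, MT1E and MT1L were not called against NC. The MT1A levels were 9.86 and 9.97 with miR-629-3p and 10.14 and 10.25 with NC, a log2 difference of -0.28 (SE 0.08, adjusted p of limma 0.0627). MT1E, by its brightest probe at chr16:56660853-56660912 (hg19, plus strand), stood at 9.31 and 9.34 with miR-629-3p and at 9.58 and 9.75 with NC (-0.34, SE 0.09, adjusted p of limma 0.0573). The arrays of the groups did not overlap in either gene, but neither difference passed the test.

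For MT1B, at chr16:56686948-56687007 (hg19, plus strand), the levels were 9.67 and 9.76 with miR-629-3p and 9.86 and 10.07 with NC, a log2 difference of -0.25 (SE 0.09, adjusted p of limma 0.126). MT1L, which the annotation lists as a gene or pseudogene with a non-coding transcript and whose probe lies at chr16:56652580-56652639 (hg19, plus strand), stood at 10.03 and 10.02 with miR-629-3p and 10.11 and 10.33 with NC (-0.20, SE 0.10, adjusted p of limma 0.217). Its NC arrays were 0.23 apart, more than the difference between the group means. Both probes run across the stop codon.

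MT2A encodes the isoform that is usually the most abundant in human cells and was read at chr16:56643332-56643391 (hg19, plus strand). Its log2 level was 10.54 and 10.51 for miR-629-3p, 10.52 and 10.44 for miR-210-3p, 10.47 and 10.50 for miR-874-3p and 10.43 and 10.58 for NC. The NC arrays were the lowest and the highest, with all others between them. The log2 difference between miR-629-3p and NC was 0.02, with a 95% confidence interval of -0.18 to 0.22 that leaves out a change as large as that of MT1X. The raw MT2A signal reached at most 17.2% of the saturation value of the scanner, and no spot was saturated.

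Of the 8 genes tested against NC, 3 were therefore called lower with miR-629-3p and 0 higher, where 7.47% of all genes were called lower. Of all genes tested, 16.8% were called in either direction. The median log2 difference of the 8 genes was -0.31, beside 0.02 over all genes, and 7 of the 8 differences were below 0, beside 46.8% of all genes. Before adjustment 6 of the 8 genes passed, as did 33.6% of all genes. The threshold of the study, which combines an unadjusted p under 0.05 with a change of 2-fold or more, left MT1X alone, where 1.64% of all genes were lower. In 7 of the 8 genes both miR-629-3p arrays lay below both NC arrays, as in 30.5% of all genes, and also below all 6 other arrays, as in 16.3% of all genes.

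The calls against NC rest on both miR-629-3p arrays. Without replicate 1 or without replicate 2 of miR-629-3p, 0 of the 8 genes were called by limma, with an adjusted p for MT1X of 0.0530 and 0.0542, and the log2 difference of MT1X was -1.09 and -1.03. Without NC replicate 2, without miR-210-3p replicate 1 or without miR-210-3p replicate 2, which share in the estimate of the spread, only MT1X stayed called (1 gene). The same was true in a fit of the miR-629-3p and NC arrays alone. In bulk RNA, fewer cells with a transcript and less of it in each cell cannot be told apart.

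Cell type markers also differed between the groups, not always in step with the metallothioneins. Of the 10 squamous markers 5 were called lower in miR-629-3p cells than in NC cells, where 7.47% of all genes were, and 0 higher. The 5 were KRT8, KRT14, KRT17, KRT18 and CDH1. The log2 of the summed signals of the list, in which bright genes weigh most, was 10.29 on both miR-629-3p arrays and 10.65 to 10.74 with NC. It was 10.48 to 10.50 with miR-210-3p and 10.59 to 10.65 with miR-874-3p. The summed endothelial markers stood at 1.34 to 1.46 with miR-629-3p and 0.61 to 0.67 with NC, where VWF was called higher, and the fibroblast markers at -0.66 to -0.62 and -0.83 to -0.82, where PDGFRB was called higher. Against miR-210-3p 4 squamous markers were called lower with miR-629-3p, where 12.7% of all genes were, and 2 higher. Against miR-874-3p 5 were called lower, where 6.88% of all genes were. The fibroblast markers summed to -0.13 to 1.06 with miR-210-3p, where COL1A1 was called lower with miR-629-3p. Of 3 tested endothelial markers 2, PECAM1 and VWF, were called higher with miR-629-3p against miR-210-3p and against miR-874-3p. PECAM1 was well above background on only 2 arrays, those of the group through which it passed the filter. Its differences therefore involve signals that were not well above background. In miR-210-3p against NC 4 of 10 squamous markers were called lower (KRT5, KRT14, KRT17 and SFN) and PDGFRB higher. COL1A1 was not called in that comparison but had its largest fibroblast difference, 2.90. There 6.05% of all genes were called in either direction. The median log2 difference of the squamous markers from NC was -0.46 with miR-210-3p and -0.48 with miR-629-3p. The part of these markers in the metallothionein values was not tested.

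**Figure D2:**
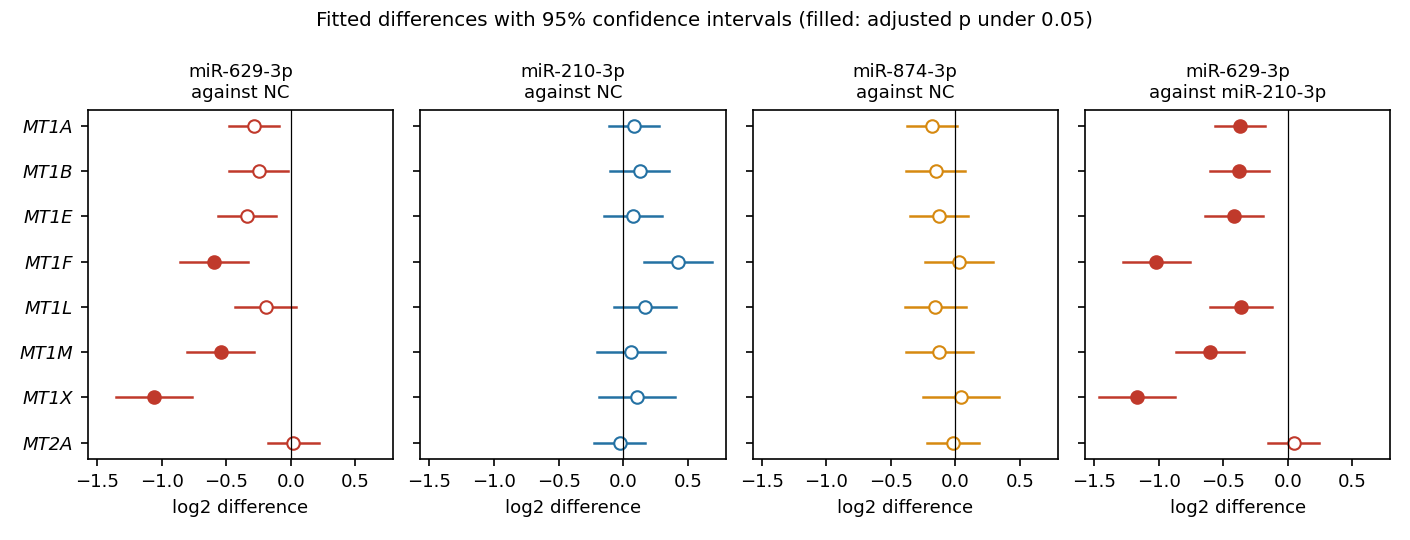
Fitted log2 difference and 95% confidence interval from limma for 8 metallothionein genes in 4 comparisons, with filled points at an adjusted p under 0.05. Filled points appear for 3 genes in miR-629-3p against NC and for 7 in miR-629-3p against miR-210-3p, and in neither comparison of the other miRNAs with NC.

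The second question was whether miR-629-3p differs from the other mimics, which share its supplier. The miR-629-3p arrays serve in each of these comparisons, so they are not independent of the one against NC. Set against miR-210-3p, on the same slide row, 7 of the 8 genes were called lower with miR-629-3p and 0 higher, where 12.7% of all genes were called lower. The exception was MT2A, with a log2 difference of 0.04 and a 95% confidence interval of -0.15 to 0.24. The median over the 8 genes was -0.40, beside -0.02 over all genes.

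MT1X was lower by a log2 difference of -1.17 (SE 0.12, adjusted p of limma 0.00496), 2.25-fold. MT1F followed with -1.02 (SE 0.11, adjusted p of limma 0.00516), 2.03-fold, and these 2 genes were the ones that also passed the threshold of the study, where 2.41% of all genes were lower. The other 5 differences were smaller, from -0.61 for MT1M through -0.42 for MT1E, -0.38 for MT1B and -0.37 for MT1A to -0.36 for MT1L, with adjusted p from 0.0155 to 0.0464. A fit of the row 1 arrays alone also called 7 genes.

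For MT1A, the miR-210-3p levels of 10.30 and 10.27 lay above every other array, and those of MT1L, 10.44 and 10.34, did too. MT1B stood at 10.09 and 10.10 with miR-210-3p, MT1E at 9.74 on both arrays. In these genes the arrays ran from miR-629-3p at the bottom, through miR-874-3p, to miR-210-3p at or near the top. Leaving out either miR-629-3p array or either miR-210-3p array reduced the count from 7 to 2, MT1F and MT1X in each case.

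Set against miR-874-3p, 2 of the 8 genes were called lower with miR-629-3p and 0 higher, where 6.88% of all genes were lower. MT1X, which alone passed the threshold of the study beside 2.31% of all genes, differed by -1.11 (SE 0.12, adjusted p of limma 0.00676) and MT1F by -0.62 (SE 0.11, adjusted p of limma 0.0182). MT1M, at -0.42 (SE 0.11), just missed the threshold with an adjusted p of 0.0505 from limma. The miR-874-3p levels were 10.04 and 9.99 for MT1A, 9.84 and 9.79 for MT1B, 9.60 and 9.47 for MT1E and 10.06 and 10.07 for MT1L, in each gene between the miR-629-3p and the miR-210-3p arrays. The differences were -0.10, -0.09, -0.21 and -0.04 for these genes and 0.04 for MT2A, and their intervals included 0. Without miR-629-3p replicate 1 MT1X alone was called, and without replicate 2 limma called 0 genes, with an adjusted p for MT1X of 0.050002. With all arrays, 3 genes differed at an unadjusted p under 0.05 by limma, as did 32.8% of all genes, and 4 by the methods' t-test.

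The third question was whether miR-210-3p or miR-874-3p alone moved the family. All comparisons with NC share its 2 arrays. Against NC, limma called 0 of the 8 genes with miR-210-3p, where 6.05% of all genes were called in either direction. Before adjustment 1 gene passed, where 26.0% of all genes did. It was MT1F, with a log2 difference of 0.42 (SE 0.11, 95% confidence interval 0.16 to 0.69, adjusted p of limma 0.0755). Its miR-210-3p arrays, 2.64 and 2.57, lay above both NC arrays. The methods' t-test gave 0 genes with and without adjustment. For the other 7 genes the fitted differences ran from -0.02 for MT2A to 0.17 for MT1L.

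Against NC, limma also called 0 of the 8 genes with miR-874-3p, where 0.423% of all genes were called. No gene passed without adjustment (0 by limma and 0 by the methods' t-test), where 16.4% of all genes did by limma. The differences ran from -0.18 for MT1A to 0.05 for MT1X, and the widest interval, that of MT1X, ran from -0.25 to 0.34. A 2-fold change lies outside the 95% interval of each of the 8 genes in both comparisons, which need not mean that smaller changes were absent.

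Between miR-210-3p and miR-874-3p limma called 0 of the 8 genes, where 9.80% of all genes were called. Before adjustment 4 genes passed by limma, where 28.3% of all genes did, and 4 by the methods' t-test. Those of limma were MT1A, MT1B, MT1F and MT1L, with log2 differences (miR-210-3p minus miR-874-3p) from 0.27 for MT1A to 0.39 for MT1F and adjusted p of limma from 0.0753 to 0.116. In each of these 4 genes the arrays of the groups did not overlap, as in 57.9% of all genes in either direction.

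MT1G and MT1H had no level that could be compared. The MT1G probe, at chr16:56700694-56700752 (hg19, minus strand), was well above background on miR-629-3p replicate 1 and miR-210-3p replicate 1 only, at -3.12 and -2.84. The MT1H probe, at chr16:56704902-56704961 (hg19, plus strand), was so on miR-210-3p replicate 2 only, at -3.06. No group had both arrays measured, so no fold is given. The dimmest signal well above background ranged from -3.74 on miR-629-3p replicate 1 to -2.82 on NC replicate 2, so detection on some arrays and not on others is no sign of a difference.

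In genes with more than 1 probe the difference varied from probe to probe. MT1E has a probe across the stop codon, a probe just after it at chr16:56660883-56660942 and a probe at chr16:56660614-56660673 that the array assigns to a predicted transcript variant (all hg19, plus strand). The probe after the stop stood at 8.50 and 8.52 for miR-629-3p, 9.06 and 9.13 for miR-210-3p, 9.00 and 8.90 for miR-874-3p and 9.00 and 9.25 for NC. The probe of the predicted variant stood at -0.90 on both miR-629-3p arrays, 0.27 and 0.15 for miR-210-3p, -0.01 and -0.07 for miR-874-3p and 0.09 and 0.07 for NC. On both probes the miR-629-3p arrays were the lowest.

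With every probe tested, 27303 in all, the log2 difference from NC was -0.34 for the probe across the stop codon, -0.62 (SE 0.11, adjusted p of limma 0.0203) for the probe after it and -0.98 (SE 0.08, adjusted p of limma 0.00410) for the predicted variant. The last 2 probes were called lower, where 6.38% of all probes were, so MT1E was called by these and not by its brightest probe. Against miR-210-3p, where 11.7% of all probes were called lower, all 3 MT1E probes were, by -0.42, -0.59 and -1.11. The annotation of the probe after the stop lists transcripts of MT1M and MT1JP besides MT1E. The difference between the probes was not tested.

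The MT1B probes gave -0.25 across the stop codon and -0.35 in the coding sequence (SE 0.10, adjusted p of limma 0.0671). For MT1HL1, whose probe reads a stretch much like that of MT1A, the levels were 9.06 and 9.18 with miR-629-3p and 9.39 and 9.55 with NC. In the fit of 1 probe a gene it was called lower by -0.35 (SE 0.09, adjusted p of limma 0.0453), and with every probe tested it was not, at an adjusted p of 0.0505.

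**Figure D3:**
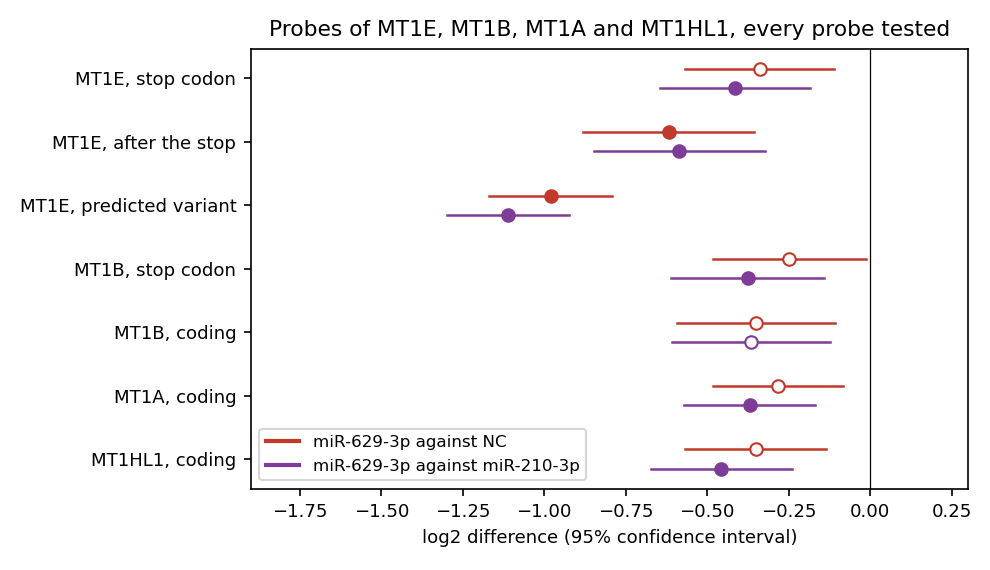
Log2 difference with its 95% confidence interval for 7 probes of MT1E, MT1B, MT1A and MT1HL1, for miR-629-3p against NC and against miR-210-3p, with filled points at an adjusted p under 0.05 among all probes. All 14 points lie below 0, and the 3 MT1E probes run from -0.34 to -0.98 against NC.

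Other loci of the family were looked up by name. Of 7 such loci 5 were on the array and 3 were tested. MT3, the form best known from the brain, stood at 4.19 and 4.15 with miR-629-3p and 4.10 and 4.18 with NC and was not called in any comparison. The pseudogene MT1IP was not called either. MT4 and MT1DP were well above background on no array.

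The promoters of MT1X and MT2A are shown because these genes, 1 that was lower with miR-629-3p and 1 that was not, are both held to be targets of MTF1. Of the 10 genes, 4 have a promoter in the RefSeq table used (MT1B, MT1H, MT1X and MT2A). The 250 bases before the start are given, on the plus strand of GRCh38.p14, with matches to the core of the metal response element in capitals. The core was searched on both strands as TGCACNC or TGCGCNC.
MT1X, chr16:56682220-56682469: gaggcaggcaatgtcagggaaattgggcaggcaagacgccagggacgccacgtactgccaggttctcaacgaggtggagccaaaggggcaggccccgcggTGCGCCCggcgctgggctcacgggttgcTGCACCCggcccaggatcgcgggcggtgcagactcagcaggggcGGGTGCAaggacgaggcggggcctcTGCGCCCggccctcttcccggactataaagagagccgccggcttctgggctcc
MT2A, chr16:56608334-56608583: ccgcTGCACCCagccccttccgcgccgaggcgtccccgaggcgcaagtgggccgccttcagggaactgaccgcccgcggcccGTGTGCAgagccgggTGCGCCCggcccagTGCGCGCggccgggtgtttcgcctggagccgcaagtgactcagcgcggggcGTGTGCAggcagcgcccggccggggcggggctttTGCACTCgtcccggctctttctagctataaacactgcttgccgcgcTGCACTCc
The MT1X promoter held 4 matches, 3 on its own strand, and the MT2A promoter 7, of which 5 were on its own strand. MT1H held 8 and MT1B 3, and no matches overlapped. Of 35114 promoters searched, 24.8% held at least 1 match, 0.370% at least 4 and 0.0313% at least 7. These matches are letters in a window and not binding sites shown by these data.

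**Figure D4:**
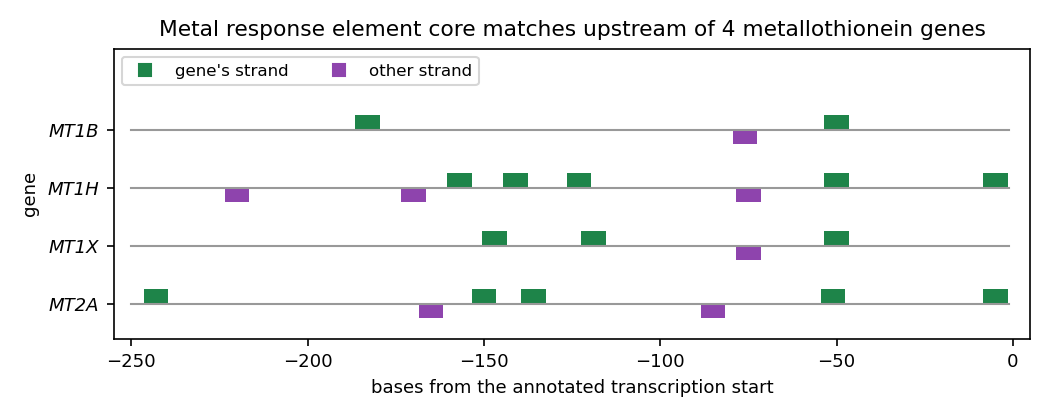
Positions of matches to the metal response element core in the 250 bases before the annotated start of 4 metallothionein genes, in bases from the start, drawn above the line for the strand of the gene and below it for the other strand. MT2A has 7 matches, MT1X 4, MT1H 8 and MT1B 3.

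Of 7 listed regulators of the family 6 were tested, and limma called 0 in miR-629-3p against NC, where 16.8% of all genes were called. Before adjustment 4 passed by limma, where 33.6% of all genes did. MTF1 had log2 levels of 1.60 and 1.62 for miR-629-3p, 1.69 and 1.55 for miR-210-3p, 1.26 and 1.46 for miR-874-3p and 1.31 and 1.26 for NC. Its level was thus higher in row 1 of the slide than in row 2, with a difference from NC of 0.32 (SE 0.10, adjusted p of limma 0.0767) for miR-629-3p and 0.33 (SE 0.10, adjusted p of limma 0.103) for miR-210-3p. The regulators had a median log2 difference of 0.06 between miR-629-3p and NC.

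Zinc transporters set the zinc that metallothioneins meet. SLC30A1, which exports zinc across the plasma membrane and is itself an MTF1 target, stood at 1.12 and 1.27 with miR-629-3p and 1.04 and 1.12 with NC and was not called in any comparison. Of 9 tested exporters of the SLC30 family 1 was called lower in miR-629-3p cells than in NC cells and 0 higher. Of all genes 7.47% were called lower. The exporter was SLC30A3, a transporter of synaptic vesicles, at -0.55 (SE 0.10, adjusted p of limma 0.0213). At the threshold of the study 1 other exporter was lower, where 1.64% of all genes were, and 0 higher. The lowest difference of the list was -1.38, and with miR-210-3p against NC the lowest was -1.39. With miR-874-3p against NC the highest difference of the list was 2.39. SLC30A4 and SLC30A8 were well above background on at most 3 and 2 arrays. Differences of these exporters therefore involve signals that were not well above background.

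Of 12 tested importers of the SLC39 family 5 were lower in miR-629-3p cells than in NC cells and 0 higher, where 7.47% of all genes were called lower. SLC39A10, an importer of the plasma membrane, stood at -0.97 and -0.84 with miR-629-3p and 0.09 and 0.06 with NC, a log2 difference of -0.98 (SE 0.10, adjusted p of limma 0.00591). Its miR-629-3p arrays lay below all 6 others. SLC39A11 (-0.69), SLC39A6 (-0.58), SLC39A4 (-0.57) and SLC39A9 (-0.30) were the other 4, with adjusted p of limma from 0.0173 to 0.0447. The median of the importers was -0.15. Against NC, 0 exporters and 0 importers were called by limma with miR-210-3p or miR-874-3p, where 6.05% and 0.423% of all genes were. Before adjustment 3 exporters and 1 importer passed by limma with miR-210-3p, where 26.0% of all genes did. With miR-874-3p 5 exporters and 1 importer passed, where 16.4% of all genes did.

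Genes that respond to the same inducers as metallothioneins were counted next. Of 10 tested genes induced by cadmium or oxidative stress 1 was higher in miR-629-3p cells than in NC cells and 0 lower, where 9.28% of all genes were called higher. That gene was SLC7A11, a part of the cystine importer, at 5.21 and 5.14 with miR-629-3p and 3.15 and 3.18 with NC, a log2 difference of 2.01 (SE 0.10, adjusted p of limma 0.000980).

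Of 7 tested glucocorticoid-induced genes 3 were called higher with miR-629-3p and 0 lower, where 9.28% of all genes were called higher. SGK1, a kinase, differed by 1.51 (SE 0.14, adjusted p of limma 0.00539), TSC22D3, also named GILZ, by 0.95 (SE 0.16, adjusted p of limma 0.0183) and DUSP1, a phosphatase, by 0.33 (SE 0.07, adjusted p of limma 0.0307). The list did not point 1 way. KLF9, a transcription factor, had a log2 difference of -1.30 (SE 0.40, adjusted p of limma 0.0796), which passed only the threshold of the study, and FKBP5, a chaperone of the glucocorticoid receptor, one of -0.46 (SE 0.18, adjusted p of limma 0.146). With miR-874-3p DUSP1 was also higher than with NC, by 0.71 (SE 0.07, adjusted p of limma 0.0321), and with miR-210-3p NQO1, a quinone reductase of the stress list, was lower by -0.54 (SE 0.07, adjusted p of limma 0.0177). The medians against NC with miR-629-3p were 0.14 for the stress genes and 0.19 for the glucocorticoid-induced genes. With miR-210-3p they were 0.0017 and 0.16, and with miR-874-3p 0.0068 and 0.52. Before adjustment 6 of the 7 glucocorticoid-induced genes passed by limma with miR-874-3p, in either direction, where 16.4% of all genes did. With miR-629-3p 5 passed, where 33.6% of all genes did.

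**Figure D5:**
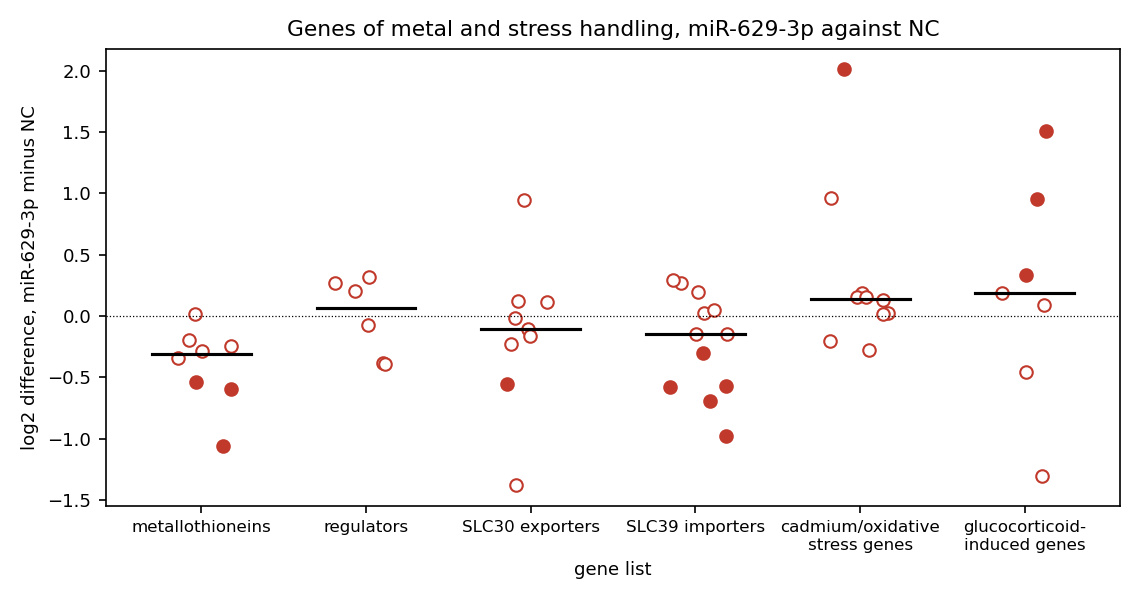
Log2 difference between miR-629-3p and NC for the tested genes of 6 lists, with 1 point a gene, filled at an adjusted p under 0.05, and a bar at the median of the list. All filled metallothionein, exporter and importer genes lie below 0, and all filled stress and glucocorticoid-induced genes above it.

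The genes most like the family over the 8 arrays were sought among 17393 others detected on all of them, by the root mean square difference between a gene's centred log2 levels and the mean profile of the 8 tested members. The nearest were THOC2, a part of the complex that prepares mRNA for export (0.03), ATP6V1C2, a proton pump subunit (0.03), IARS2, a mitochondrial tRNA synthetase (0.04), SNUPN, an import factor of small nuclear RNPs (0.04), and NUP107, a nuclear pore protein (0.05). The members themselves lay 0.06 (MT1E) to 0.31 (MT1X) from their own mean, so MT1X, with the largest change, and MT2A (0.21), with none called, were the least typical.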

How the data were processed

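RNA of 8 samples was hybridised to 1-colour Agilent arrays of 60901 spots. The authors deposited scanner intensities from Agilent Feature Extraction 11.5.1.1, already corrected for background, and a log2 value table that matched the values used here to within 0.05 for 100% of the probes compared, after removal of 1 offset per array. Spots marked as outliers (87 to 346 an array, 0 of them in metallothionein probes) and control spots were left out, spots of a probe were averaged, and the log2 of the processed intensity was taken relative to the 75th percentile of the gene probes of the array. Probes stayed in the analysis if at least 1 group had them well above background on each of its 2 arrays, and a gene was read by its brightest such probe. All 8 arrays were fitted together with limma 3.58.1 in R 4.3.3, without a covariate, on 4 residual degrees of freedom, and p-values were adjusted by Benjamini-Hochberg over 21283 genes. Genes outside the family were named where called against NC, besides KLF9, FKBP5, COL1A1 and PECAM1, chosen after their values were seen, and MTF1, SLC30A1, other loci of the family, genes without signal and the 5 nearest profiles. The members and gene lists were chosen with earlier results of these data known. On simulated data for miR-629-3p against NC, 200 of 21283 genes were changed. The fit recovered 10%, 52%, 78% and 80% of log2 changes of 0.5, 1, 1.5 and 2, with 4 false calls. In the data 16.8% of genes were called in this comparison, far more than were changed in the simulation, so these shares need not hold there. Sequences came from the array files and RefSeq. The leukocyte marker list is not reported here in full.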

Additional observations from a re-analysis of the deposited data

Results flagged for a closer look

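MT1G and MT1H lay outside the tests, and each was marked well above background on a miR-210-3p array and on no NC array. MT1G stood at -2.84 on miR-210-3p replicate 1 and at -3.10 and -3.36 on the NC arrays, which did not measure it above background. MT1H stood at -3.06 on miR-210-3p replicate 2 and at -5.05 and -3.85 on the NC arrays, which did not measure it either. The dimmest signal well above background was lower on the miR-210-3p arrays (-3.39 and -3.42) than on the NC arrays (-2.840 and -2.821). Both values lay under the NC limits, at -2.845 for MT1G, so no difference between the groups can be read from them. The other miR-210-3p array did not measure the same gene above background.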

How the results depend on the processing

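The number of metallothionein genes called in miR-629-3p against NC, 3 as reported, was 5 with normexp background correction, with centring on the median and with a filter for signal on all 8 arrays, 6 with a trended prior, 1 in a fit of these 2 groups alone and at the threshold of the study, and 0 by the methods' t-test after adjustment (3 before it), which called 0 of all genes there. Leaving out 1 array at a time gave 0 to 4 calls. In miR-629-3p against miR-210-3p the 7 calls became 2 without a filter on detection, by the adjusted t-test and at the threshold of the study, and 2 to 7 with 1 array left out. The 2 calls in miR-629-3p against miR-874-3p became 1 in the fit of both groups alone and at the threshold of the study and 0 by the adjusted t-test, which called 0 of all genes here too, with 0 to 3 when 1 array was left out. A scaling over spots, chosen after seeing the data, added MT1M there (-0.45, adjusted p of limma 0.0472). MT1F was the 1 gene called in miR-210-3p against NC with normexp, the filter on all 8 arrays or the trended prior, and these settings gave 3, 1 and 4 genes in miR-210-3p against miR-874-3p. In miR-874-3p against NC all alternatives gave 0. With the replicate number as a replicate block, miR-629-3p against miR-210-3p gave 3 calls and miR-629-3p against NC 2. Same-numbered samples did not deviate together (r of their deviations across genes from -0.11 to 0.03), so they share only a number. A slide block could not be fitted on 1 slide. Signs turned only where the difference was near 0. MT2A became 0.033 with normexp in miR-874-3p against NC, -0.015 with median centring in miR-629-3p against NC, 0.011 with the deposited values or with outlier spots kept in miR-210-3p against NC, and 0.028 and 0.027 with these in miR-210-3p against miR-874-3p. MT1L in miR-629-3p against miR-874-3p became 0.043 with quantile normalization, 0.0074 with the deposited values and 0.0068 with outlier spots kept. MT1X became -0.024 with quantile normalization in miR-210-3p against miR-874-3p. With 1 array left out, MT2A ranged from -0.056 to 0.093 in miR-629-3p against NC, -0.10 to 0.049 in miR-210-3p against NC, -0.093 to 0.055 in miR-874-3p against NC and -0.043 to 0.030 in miR-210-3p against miR-874-3p. Against NC with miR-210-3p the ranges were -0.012 to 0.16 for MT1E, -0.035 to 0.16 for MT1M and -0.038 to 0.26 for MT1X, and with miR-874-3p -0.078 to 0.14 for MT1F and -0.10 to 0.19 for MT1X. MT1X ran from -0.016 to 0.14 between miR-210-3p and miR-874-3p. Of the single-gene values under all alternatives, 980 kept direction and call, 34 gained a call, 65 lost it and 25 turned. The causes of these shifts were not tested. MT1G and MT1H were too dim for a comparison.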
